A study of Mus musculus with 6 samples.

Results

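Transcripts of respiratory complexes II to V were followed in SMEK1 knockdown and WT libraries of BV2 cells, by complex and by the genome that encodes each gene. Members were the protein-coding genes of the deposited count table whose symbols name subunits of succinate dehydrogenase (Sdha to Sdhd), of the cytochrome bc1 complex (Uqcr genes, Cyc1, mt-Cytb), cytochrome c (Cycs), of cytochrome c oxidase (Cox4 to Cox8 genes, mt-Co genes) and of ATP synthase (Atp5 genes, mt-Atp genes). The rule found 56 genes of 54532 in the table: 4 of complex II, 10 of complex III, 1 for cytochrome c, 21 of complex IV and 20 of complex V. Of these, 50 lie in the nuclear genome and 6 in the mitochondrial genome. The rule used symbols and no measured values, but it was chosen with earlier results of these data known. It took in Cox7a2l, known as an assembly factor of respiratory supercomplexes, and Atp5s, known as coupling factor B. It left out Ndufa4 and Usmg5, whose products are now counted with complexes IV and V. In the knockdown over WT comparison these had log2 fold changes of 0.34 (SE 0.13, adjusted p = 0.0555) for Ndufa4 and -0.19 (SE 0.11, adjusted p = 0.219) for Usmg5.

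Complexes II, III and IV sit in the inner mitochondrial membrane and pass electrons from succinate and ubiquinol through cytochrome c to oxygen. Complexes III and IV pump protons on the way, and complex V, the ATP synthase, uses the return of protons to make ATP. Complex II is encoded in the nucleus alone, while the others also need subunits that are made inside the mitochondrion from its own DNA, so transcripts of both genomes contribute to one enzyme. In microglia, as in other macrophages, the balance between respiration and glycolysis is known to shift with activation.

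BV2 is an immortalised line of mouse microglia, grown per the labels in DMEM with serum and antibiotics. The 3 knockdown libraries (A, B and C) are labelled as knockdown of SMEK1, which helps direct protein phosphatase 4 to its substrates and whose gene is listed as Ppp4r3a, and the 3 WT libraries (A, B and C) as WT. The sources used here do not say if the WT cells carried a control construct, and no label names a stimulus. Nothing in the labels ties the libraries of a group to cultures of their own, and p-values then measure only the spread between these libraries, which may be technical. Anything else that differed between the cells of the groups cannot be told apart from the knockdown. Library totals lay between 18627425 and 21131557 counts in the knockdown and between 18036591 and 18708438 counts in WT, so that 1 count was worth 0.0444 to 0.0522 counts-per-million (CPM) in the knockdown libraries and 0.0539 to 0.0596 CPM in the WT libraries. The target gene Ppp4r3a was counted 48, 122 and 94 times in knockdown A, B and C, against 335, 227 and 260 times in WT A, B and C, which left 26.1% of the WT level. Of 12 markers of microglia and macrophages, 10 passed the filter on low counts, and their sum was 3278 to 3580 CPM in the knockdown libraries and 3566 to 3960 CPM in the WT libraries, with 3 markers higher and 4 lower. The microglial genes Cx3cr1 and P2ry12 stayed under 1 CPM in every library. Markers of neurons, astrocytes, fibroblasts and endothelium summed to less than 1 CPM per list in every library. The oligodendrocyte list summed to 7.15 to 7.26 CPM in the knockdown libraries and 2.53 to 2.80 CPM in the WT libraries, almost all of it Mbp, with Mog at 0 counts; the part of these marker changes in the results was not tested.

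Respiratory transcripts did not move as a block. Complex II had positive fold changes in all 4 genes, and most nuclear genes of complex IV had negative ones. In complex V 2 members were called higher and 1 lower of 18 tested, and the tested members from the mitochondrial genome were not called. After a filter on low counts 49 members were tested by edgeR's quasi-likelihood test, with counts scaled by the trimmed mean of M values (TMM) and p-values adjusted over all 12269 genes tested. At an adjusted p under 0.05, 18 members (36.7%) were called, where 40.1% of all genes were. Of these, 7 were higher (14.3%, against 20.5% of all genes) and 11 were lower (22.4%, against 19.6%). The share of members called was thus near that of all genes. In bulk libraries, fewer cells that express a gene and less RNA per cell cannot be told apart. The median log2 fold change was -0.05 over the members and 0.01 over all genes. For 18 members the knockdown and WT libraries did not overlap, 6 higher and 12 lower, where 50.9% of all genes did not overlap, 26.7% higher and 24.3% lower. Among the 37 tested nuclear genes of complex I, 5 were higher and 5 lower (27.0% called), with a median of 0.04.

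The direction of small changes depended on how libraries were scaled. With library totals in place of TMM, the median gene of the table moved to 0.17, a shift of 0.16 on the log2 scale, and 19 members were called higher and 8 lower. Of all genes, 44.5% were then called, 31.7% higher and 12.8% lower. The counts that moved most were in complex V, where 9 nuclear members were higher and 1 lower with library totals, against 2 higher and 1 lower with TMM. Fold changes below are on the TMM scale, where the median gene stands at 0.01, and calls that need one of the scalings are named.

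**Figure D1:**
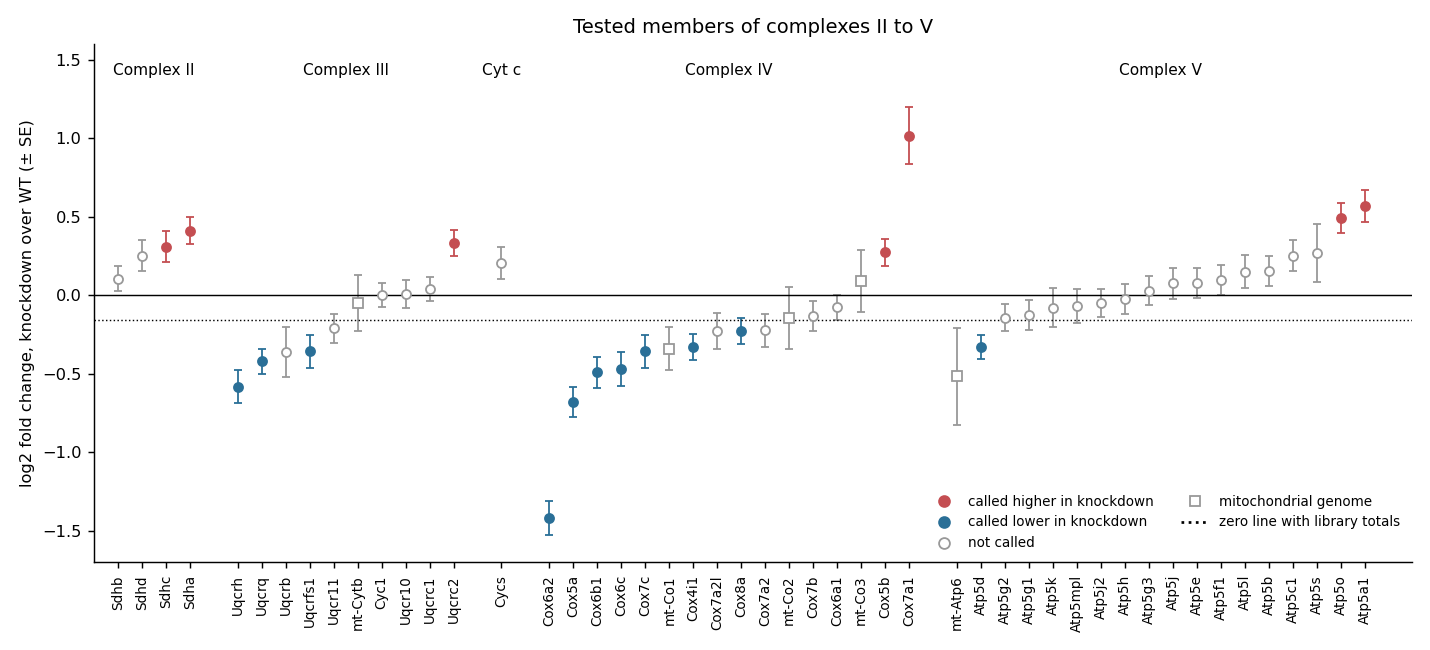
Log2 fold change of knockdown over WT on the TMM scale (points, bars ± SE) for the 49 tested members, grouped by complex and ordered within it. Red and blue mark members called higher and lower, open symbols members not called, squares genes of the mitochondrial genome, and the dotted line shows where 0 would lie with library totals. Cox6a2 at -1.42 and Cox7a1 at 1.02 are the outermost points, and the 4 complex II genes lie above 0.

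Summed over all nuclear members of a complex, shares of library totals are dominated by the subunits with many counts, and their direction depended on the scaling in complex III and over all members. Complex II took 0.148%, 0.148% and 0.155% of counts in knockdown A, B and C, against 0.110%, 0.117% and 0.114% in WT A, B and C. Nuclear members of complex V took 1.05%, 1.02% and 1.08% in the knockdown libraries, against 0.794%, 0.864% and 0.839% in the WT libraries. Both complexes thus took a larger share in each knockdown library than in any WT library. Complex IV went the other way, with 0.567%, 0.570% and 0.595% in the knockdown libraries and 0.603%, 0.637% and 0.608% in the WT libraries. Complex III overlapped between the groups, at 0.306% ± 0.00239 in the knockdown and 0.302% ± 0.00277 in WT (SD, n = 3 each). All members together made up 2.41%, 2.60% and 2.64% of counts in the knockdown libraries, against 2.39%, 2.37% and 2.35% in the WT libraries. With TMM-scaled library totals in place of library totals, a scaling added after these values were seen, complex III took 0.295%, 0.280% and 0.293% in the knockdown libraries and 0.303%, 0.336% and 0.318% in the WT libraries, lower without overlap. Complex V then overlapped, because knockdown B at 0.929% lay below WT B at 0.953%, with means of 0.992% in the knockdown and 0.881% in WT. Complex II stayed higher and complex IV lower without overlap on both scales. All members together were 2.41% ± 0.0916 in the knockdown and 2.51% ± 0.101 in WT on the TMM scale (SD, n = 3 each), which overlapped and turned the direction of the difference in means. For shares of library totals, the exact two-sided permutation test of the group labels gave p = 0.1 for complexes II, IV and V and for all members, which is the smallest value that 3 libraries against 3 allow, and p = 0.2 for complex III. Across the 21 quantities compared in this way, 12 had p = 0.1 by the exact test, which becomes 0.175 after Benjamini-Hochberg adjustment, so no share or ratio could pass 0.05.

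**Figure D2:**
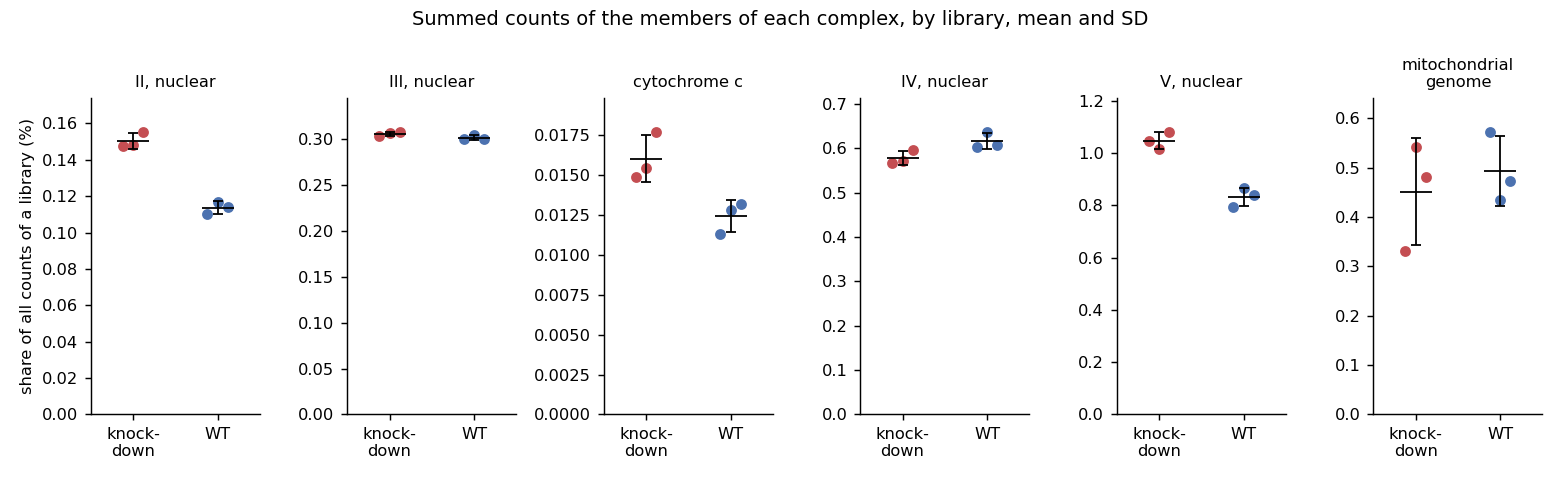
Share of all counts of a library, in percent, taken by the nuclear members of each complex, by cytochrome c and by the 6 members of the mitochondrial genome; points are libraries and lines are means ± SD (n = 3 per group), with each axis starting at 0. On this scale of library totals complexes II and V are higher in every knockdown library and complex IV is lower, while complex III and the mitochondrial genome overlap between groups; with TMM-scaled totals complex V overlaps and complex III is lower.

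Complex II was the complex whose genes all pointed one way. Of its 4 genes 2 rose, where 20.5% of all genes were called higher. Sdha, which encodes the flavoprotein that oxidises succinate, had 213, 256 and 226 CPM in knockdown A, B and C, against 167, 175 and 181 CPM in WT A, B and C. Every knockdown library lay above every WT library, and Sdha rose by 0.41 log2 units (SE 0.09, adjusted p = 0.00257), to 133% of the WT level. Sdhc, a membrane anchor of the complex that helps bind ubiquinone, had 380, 315 and 366 CPM in the knockdown libraries and 257, 316 and 282 CPM in the WT libraries. Its groups overlapped, because knockdown B lay just under WT B, and it rose by 0.31 (SE 0.10, adjusted p = 0.0259). Sdhd, the other membrane anchor and the complex II gene with the highest level per length, averaged 319 ± 30.5 FPKM in the knockdown and 269 ± 30.0 FPKM in WT (SD, n = 3 each) in the authors' values. Its log2 fold change of 0.25 was not called (adjusted p = 0.0620), nor was the 0.11 of Sdhb, the iron-sulfur subunit (adjusted p = 0.315). With library totals all 4 genes were called higher, where 31.7% of all genes were. The Sdhc call was lost in both fits on FPKM and without knockdown A, knockdown C, WT A or WT C (adjusted p up to 0.0946). The Sdhd change was called without knockdown B (adjusted p = 0.0105) or WT B (0.0389), and with the filter of 1 count in any library (0.00355).

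Sdha lies on chromosome 13 from 74322254 to 74350280 on the minus strand in GRCm38. Its promoter is shown because Sdha had the largest change of complex II and because the window repeats a motif linked to respiratory genes. Nuclear respiratory factor 1, NRF1, is a transcription factor known to bind promoters of many such genes at sites with the core GCGCANGCG, where N is any base. The window below runs from 250 bases before to 50 bases after the start site of the RefSeq transcript (GRCm38.p6, chr13:74350191-74350490, minus strand), written 5′ to 3′ on the strand of the gene, with matches in capitals on either strand.
Sdha: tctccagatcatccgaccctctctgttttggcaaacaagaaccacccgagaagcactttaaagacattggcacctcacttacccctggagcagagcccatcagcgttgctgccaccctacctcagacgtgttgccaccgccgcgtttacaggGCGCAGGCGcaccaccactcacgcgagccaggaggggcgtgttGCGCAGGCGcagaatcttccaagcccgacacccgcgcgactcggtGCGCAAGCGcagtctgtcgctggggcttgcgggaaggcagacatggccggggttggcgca
The 3 matches begin 98, 55 and 10 bases before the start site. A match of letters describes the window and does not show binding.

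In complex III 1 of 10 tested members rose and 3 fell, where 20.5% of all genes were higher and 19.6% lower. The 4 calls among 10 members were thus a share near the 40.1% of all genes called. Uqcrc2, a core protein, was the only called rise, with 227, 237 and 253 CPM in knockdown A, B and C, against 173, 196 and 201 CPM in WT A, B and C. The groups did not overlap, and Uqcrc2 rose by 0.33 log2 units (SE 0.08, adjusted p = 0.00837). Uqcrc1, the other core protein, had a fold change of 0.04 (adjusted p = 0.689) with overlapping groups. Uqcrh, the hinge protein that contacts cytochrome c1, had 99.9, 84.9 and 104 CPM in the knockdown libraries and 125, 151 and 156 CPM in the WT libraries. It fell by 0.58 log2 units (SE 0.10, adjusted p = 0.000948), to 66.8% of the WT level, the largest fall of the complex. Uqcrq, a small subunit that borders cytochrome b, was far more abundant at 632, 592 and 620 CPM in the knockdown libraries and 796, 869 and 801 CPM in the WT libraries, and fell by 0.42 (SE 0.08, adjusted p = 0.0014). Uqcrfs1, the Rieske iron-sulfur protein that takes electrons from ubiquinol, fell by 0.35 (SE 0.10, adjusted p = 0.0181), with 261, 218 and 258 CPM in the knockdown libraries and 273, 350 and 320.0 CPM in the WT libraries. All 3 falls had each knockdown library below each WT library. Cyc1, the cytochrome c1 that hands electrons on to cytochrome c, averaged 566 ± 14.4 CPM in the knockdown group and 565 ± 24.7 CPM in the WT group (SD, n = 3 each), for a log2 difference of 0.0015 (SE 0.08, adjusted p = 0.989). Uqcr10, the nuclear subunit with the highest FPKM of the complex at 671 ± 43.0 in the knockdown and 672 ± 61.4 in WT (SD, n = 3 each), had 0.0069 (adjusted p = 0.959). The 6 members that were not called, mt-Cytb among them, ranged from -0.36 to 0.04.

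The Uqcrfs1 call was lost with library totals (adjusted p = 0.0641) and without knockdown B, WT B or WT C (adjusted p up to 0.0689). Uqcrb, another small subunit, had -0.36 (adjusted p = 0.0932). It was called lower without knockdown A (adjusted p = 0.00476) or WT A (0.0481), and with the filter of 1 count in any library (0.00881). With library totals Cyc1 and Uqcrc1 were called higher, at 0.16 and 0.20. The Uqcrh promoter is shown as that of the largest change of complex III, on chromosome 4 (GRCm38.p6, chr4:116075021-116075320, minus strand, RefSeq). Its capitals mark a match to CCGGAAG, the core of sites bound by ETS factors such as GABPA, here read on the opposite strand and beginning 10 bases before the start site.
Uqcrh: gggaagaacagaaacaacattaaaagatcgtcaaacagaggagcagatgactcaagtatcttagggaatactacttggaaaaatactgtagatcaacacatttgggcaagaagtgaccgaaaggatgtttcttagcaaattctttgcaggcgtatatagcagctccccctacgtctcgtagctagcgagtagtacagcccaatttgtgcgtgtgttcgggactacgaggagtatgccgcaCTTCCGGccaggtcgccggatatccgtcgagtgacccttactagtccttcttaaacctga
It holds no match to the NRF1 core.

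Cycs, which encodes the cytochrome c that carries electrons between complexes III and IV, had 145, 141 and 169 CPM in knockdown A, B and C, against 114, 141 and 140 CPM in WT A, B and C. Knockdown B lay within the WT range, and the log2 fold change of 0.20 (SE 0.10) was not called (adjusted p = 0.133). It was called with library totals, at 0.37 (adjusted p = 0.00628), and without knockdown B (adjusted p = 0.0467).

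Complex IV held the 2 largest falls, those of Cox6a2 and Cox5a. Of 18 nuclear members 13 passed the filter, and the other 5 had few counts or none. Of the 13, 7 were lower (53.8%, against 19.6% of all genes) and 2 higher (15.4%, against 20.5%). Fold changes were below 0 in 11 of the 13, with a median of -0.23. With library totals 5 were lower (38.5%, against 12.8% of all genes) and 2 higher (15.4%, against 31.7%), and the median was -0.07. The subunits named for the core of the complex, mt-Co1, mt-Co2 and mt-Co3, carry its haem and copper centres or support them, and are described with the mitochondrial genome.

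Among the widely expressed nuclear subunits, Cox5a, a subunit on the matrix side, fell most. It had 96.7, 92.5 and 101 CPM in knockdown A, B and C, against 135, 174 and 155 CPM in WT A, B and C, which is 62.6% of the WT level (log2 fold change -0.68, SE 0.10, adjusted p = 0.000192). Cox6b1, which faces the intermembrane space and helps join the 2 monomers of the enzyme, had 258, 259 and 319 CPM in the knockdown libraries and 370.0, 420.2 and 383 CPM in the WT libraries. It fell by 0.49 (SE 0.10, adjusted p = 0.00209), and the groups did not overlap in either gene. Cox6c, a single-pass membrane subunit, had 255, 245 and 294 CPM in the knockdown libraries and 312, 406 and 382 CPM in the WT libraries, and fell by 0.47 (SE 0.11, adjusted p = 0.00473). Cox7c, another membrane subunit, had 278, 258 and 303 CPM in the knockdown libraries and 305, 400.1 and 369 CPM in the WT libraries, and fell by 0.36 (SE 0.10, adjusted p = 0.018). In Cox7c the highest knockdown library lay just under the lowest WT library, a narrower gap than in Cox6c. Cox4i1, the widely expressed form of the subunit that regulates the enzyme's response to ATP, had 1687, 1602 and 1668 CPM in the knockdown libraries and 2044, 2176 and 2009 CPM in the WT libraries. It fell by 0.33 (SE 0.08, adjusted p = 0.00735), with every knockdown library below every WT library. Cox8a, which had the highest FPKM of the nuclear members at 1439 ± 47.7 in the knockdown and 1693 ± 113 in WT (SD, n = 3 each), fell by 0.22 log2 units (SE 0.08, adjusted p = 0.0489). Its levels were 776, 781 and 819 CPM in the knockdown libraries, below the 865, 991 and 918 CPM of the WT libraries.

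Cox5b, a zinc-binding subunit on the matrix side, went against these, with 528, 514 and 531 CPM in knockdown A, B and C, against 413, 478 and 411 CPM in WT A, B and C. It rose by 0.27 (SE 0.08, adjusted p = 0.0219). Its partner by number, Cox5a, is a different protein and not an isoform of it. Cox6a1, Cox7a2, Cox7a2l and Cox7b were not called, with fold changes from -0.23 to -0.08 and overlapping groups. Without WT A, Cox7a2 and Cox7a2l were called lower (adjusted p = 0.0226 and 0.0311). The calls of Cox5a, Cox6b1, Cox6c and Cox4i1 held with library totals and without each library in turn. Those of Cox7c and Cox8a did not hold with library totals (adjusted p = 0.0746 and 0.388). Cox7c was also lost without WT B or WT C (adjusted p up to 0.0724), Cox8a with size factors of DESeq2, with the filter of 1 count in any library, in both fits on FPKM and without knockdown A, B or C or WT B or C (up to 0.160 in the last 5), and Cox5b when knockdown C, WT A or WT C was left out (up to 0.127). Cox4i1 shares 154 exon bases with Emc8 on the other strand, which had 11868 counts over the 6 libraries against 213911 for Cox4i1, and the sources used here do not say whether counting used strand.

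The 2 widest changes of all tested members were in subunits known as heart and skeletal muscle isoforms, and they had opposite signs. Cox6a2 replaces Cox6a1 in those tissues, and Cox7a1 replaces Cox7a2. Cox6a2 had 49.4, 37.6 and 45.1 CPM in knockdown A, B and C, against 110, 130 and 113 CPM in WT A, B and C, and fell by 1.42 log2 units (SE 0.11, adjusted p = 1.89e-06), to 37.4% of the WT level. Cox7a1 was scarcer, with 13.2, 9.99 and 10.5 CPM in the knockdown libraries and 4.96, 5.19 and 6.47 CPM in the WT libraries, and rose by 1.02 (SE 0.18, adjusted p = 0.00103), to 202% of the WT level. Neither pair of groups overlapped, and both calls held in all 16 alternatives. Cox6a2 lies on chromosome 7 from 128205435 to 128206387 on the minus strand and shares 70 exon bases with Itgad, which had 9 counts over the 6 libraries against 8932 for Cox6a2. Cox7a1 lies on chromosome 7 from 30184144 to 30186078 on the plus strand.

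Scaled by gene length, Cox6a2 made up 6.52%, 5.22% and 5.91% of the summed level of Cox6a1 and Cox6a2 in knockdown A, B and C, against 13.6%, 14.1% and 13.4% in WT A, B and C. Cox6a1 itself averaged 726 ± 18.5 CPM in the knockdown group and 765 ± 47.0 CPM in the WT group (SD, n = 3 each), so the share followed Cox6a2. Cox7a1 made up 3.54%, 3.28% and 2.86% of the trio Cox7a1, Cox7a2 and Cox7a2l in the knockdown libraries, against 1.44%, 1.18% and 1.57% in the WT libraries. Most of the trio was Cox7a2l, named above as an assembly factor, at 71.1% ± 1.84 in the knockdown and 72.5% ± 0.666 in WT (SD, n = 3 each). A share of Cox7a1 against Cox7a2 alone would thus be larger, and it was not computed. Cox6a1 in the pair, and Cox7a2 with Cox7a2l in the trio, held most of each summed level in both groups. The share of Cox7a2 was 25.7% ± 2.14 in the knockdown and 26.1% ± 0.468 in WT (SD, n = 3 each), and overlapped between the groups (exact permutation p = 0.9). By the exact two-sided permutation test the shares of Cox6a2 and Cox7a1 had p = 0.1, the smallest this design allows. With counts not scaled by length the difference in the Cox7a1 share was 0.918 percentage points in place of 1.83.

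**Figure D3:**
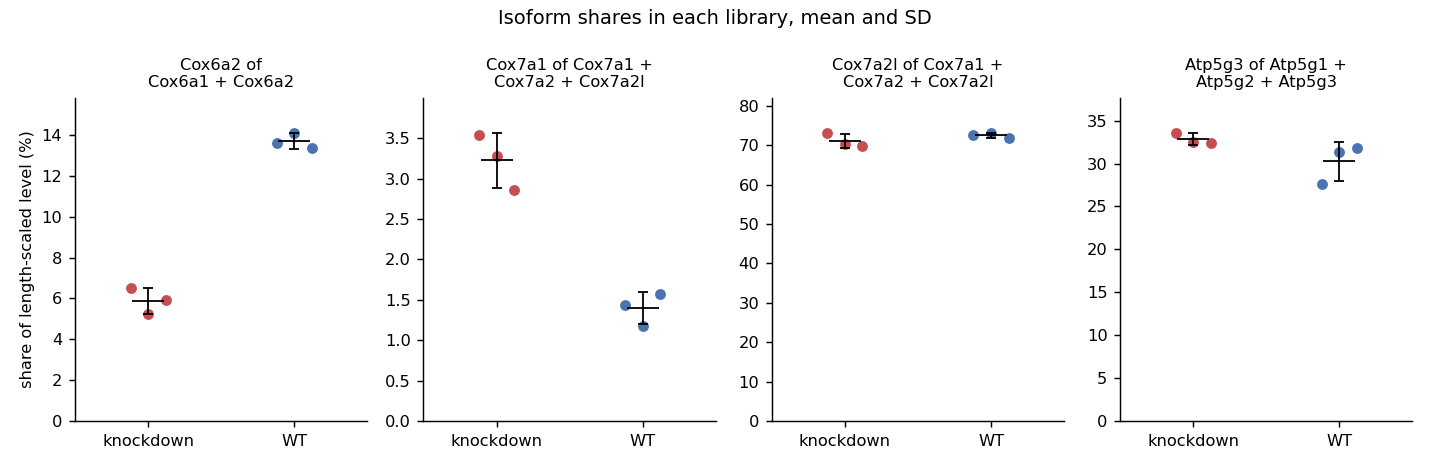
Share of an isoform in the summed length-scaled level of its pair or trio, in percent, by library (points) with mean ± SD (lines, n = 3 per group). The Cox6a2 share is 5.22% to 6.52% in the knockdown libraries and 13.4% to 14.1% in the WT libraries, the Cox7a1 share is higher in the knockdown, and the Cox7a2l share overlaps between groups.

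The other tissue-restricted isoforms were nearly or wholly without counts. Cox4i2, the lung form of subunit 4, was counted 4, 2 and 3 times in knockdown A, B and C, against 2, 2 and 2 times in WT A, B and C, and did not pass the filter. Cox8b, a muscle isoform, and the testis isoforms Cox6b2, Cox7b2 and Cox8c had 0 counts in every library. A count of 0 over a group allows up to 3 counts, or 0.047 CPM in the knockdown group and 0.0573 CPM in the WT group, by counting error alone. Of the 6 muscle and testis isoforms listed, only Cox6a2 and Cox7a1 were thus measured.

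Promoters of the members with the largest rise and the largest fall of complex IV that have a RefSeq window, Cox7a1 (GRCm38.p6, chr7:30183921-30184220, plus strand) and Cox5a (chr9:57520982-57521281, plus strand), are shown in the same frame of 250 bases before to 50 after the start site. Neither holds a match to the ETS, NRF1 or YY1 cores searched, so there are no capitals.
Cox7a1: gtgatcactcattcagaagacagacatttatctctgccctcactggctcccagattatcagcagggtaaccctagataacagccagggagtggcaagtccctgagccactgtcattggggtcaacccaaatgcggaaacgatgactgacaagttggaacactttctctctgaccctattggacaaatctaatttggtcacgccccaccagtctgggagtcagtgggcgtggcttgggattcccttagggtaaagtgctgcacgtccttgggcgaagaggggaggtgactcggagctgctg
Cox5a: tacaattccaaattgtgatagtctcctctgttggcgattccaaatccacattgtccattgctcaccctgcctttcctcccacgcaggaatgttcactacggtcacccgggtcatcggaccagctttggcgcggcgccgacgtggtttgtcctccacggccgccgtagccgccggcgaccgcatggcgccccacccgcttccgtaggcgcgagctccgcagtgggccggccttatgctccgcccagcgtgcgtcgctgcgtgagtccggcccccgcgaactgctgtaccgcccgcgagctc
The absence of a match says only that these letters are not in these windows.

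Complex V combined 2 rises, 1 fall and 15 members without a call. Of its 18 tested members 16.7% were called, a smaller share than the 40.1% of all genes. By direction 11.1% were higher, against 20.5% of all genes, and 5.56% lower, against 19.6%. Atp5a1, the alpha subunit of the catalytic head known as F1, had 2301, 2043 and 2294 CPM in knockdown A, B and C, against 1294, 1637 and 1548 CPM in WT A, B and C. It rose by 0.57 log2 units (SE 0.10, adjusted p = 0.0011), to 148% of the WT level, and lies on chromosome 18. Atp5o encodes OSCP, the protein that joins the head to the peripheral stalk, and had 493, 456 and 529 CPM in the knockdown libraries and 314, 383 and 355 CPM in the WT libraries. It rose by 0.49 (SE 0.09, adjusted p = 0.00148). In both genes every knockdown library lay above every WT library. Atp5o lies on chromosome 16, where the median log2 fold change of 377 tested genes was 0.40, while Atp5j, a subunit of the same stalk and chromosome, had 0.08 (adjusted p = 0.573). Whether the level of that chromosome bears on Atp5o was not tested.

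Atp5d, the delta subunit of the central stalk, fell by 0.33 (SE 0.08, adjusted p = 0.00496), with 447, 418 and 445 CPM in knockdown A, B and C, against 555, 561 and 529 CPM in WT A, B and C. The calls of Atp5a1, Atp5o and Atp5d held in all 16 alternatives. The rest of the head was not called. Atp5b, the catalytic beta subunit and the nuclear gene of the complex with the highest FPKM (712 ± 57.3 in the knockdown and 643 ± 51.7 in WT, SD, n = 3 each), had 0.16 (adjusted p = 0.216). Atp5c1, the gamma subunit that turns inside the head, had 0.25 (adjusted p = 0.0602), and Atp5e, the epsilon subunit, had 0.08 (adjusted p = 0.544). All 3 were called higher with library totals, at 0.32, 0.41 and 0.24. Atp5c1 was also called by DESeq2 (adjusted p = 0.0498), and by edgeR without knockdown B (adjusted p = 0.0134) or WT B (0.0346). In the peripheral stalk and the membrane part, Atp5f1, Atp5h, Atp5j, Atp5j2, Atp5k, Atp5l and Atp5mpl ranged from -0.08 to 0.15, and none was called. Atp5f1, Atp5g3, Atp5j and Atp5l were called higher with library totals. Atp5f1 shares 337 exon bases with Wdr77 on the other strand, and Wdr77 had 4970 counts over the libraries against 20755 for Atp5f1. Atp5s, a scarce member at 8.59 ± 0.995 CPM in the knockdown group and 7.12 ± 1.25 CPM in the WT group (SD, n = 3 each), had 0.27 (adjusted p = 0.263).

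Subunit c, which forms the rotating ring in the membrane, is made from 3 nuclear genes that give the same mature protein. Atp5g2 had 638, 610.4 and 673 CPM in knockdown A, B and C, against 723, 741 and 656 CPM in WT A, B and C. Atp5g3 had 478, 435 and 482 CPM in the knockdown libraries and 404, 504 and 457 CPM in the WT libraries. Atp5g1, Atp5g2 and Atp5g3 were not called, with log2 fold changes of -0.13, -0.14 and 0.03. Scaled by length, Atp5g2 was 58.9% ± 0.485 of their sum in the knockdown and 61.3% ± 2.71 in WT, and Atp5g3 was 32.8% ± 0.673 in the knockdown and 30.3% ± 2.29 in WT (SD, n = 3 each). The groups did not overlap in either share (exact permutation p = 0.1 for both), but 1 library set much of the size. Without WT A the difference in the Atp5g2 share was -0.771 percentage points in place of -2.33, and that in the Atp5g3 share was 1.25 in place of 2.57.

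The Atp5o promoter (GRCm38.p6, chr16:91931581-91931880, minus strand, RefSeq) is shown as that of the called complex V member with the largest change among those with a window. Its capitals mark a match to the NRF1 core on the opposite strand, 10 bases after the start site.
Atp5o: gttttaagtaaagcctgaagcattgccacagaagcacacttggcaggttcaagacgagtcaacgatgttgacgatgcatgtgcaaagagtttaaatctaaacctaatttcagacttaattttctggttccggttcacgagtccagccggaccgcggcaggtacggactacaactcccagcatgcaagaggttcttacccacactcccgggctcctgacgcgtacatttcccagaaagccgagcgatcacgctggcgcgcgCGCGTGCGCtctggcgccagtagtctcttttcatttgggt
The table lists a second identifier named Atp5o on the same chromosome, which had 0 counts in every library.

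Of the nuclear members, 35 had a RefSeq promoter window, and the first window listed for each gene was searched on both strands for the letters CCGGAAG (ETS), GCGCANGCG (NRF1) and AANATGGC (YY1). The NRF1 core was found in 12 of the 35 windows (34.3%), against 6.47% of 27025 promoters, and the ETS core in 11 (31.4%), against 9.12%. The YY1 core was in 3 (8.57%), against 6.23%. By call, the NRF1 core was in 2 of the 4 windows of called rises, Sdha and Atp5o, and in 0 of the 7 windows of called falls. The ETS core was in 0 of the 4 and in 3 of the 7, Uqcrh, Cox6b1 and Cox8a. These counts are small and were not tested, and members without a call held both cores too, 10 and 8 of 21.

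**Figure D4:**
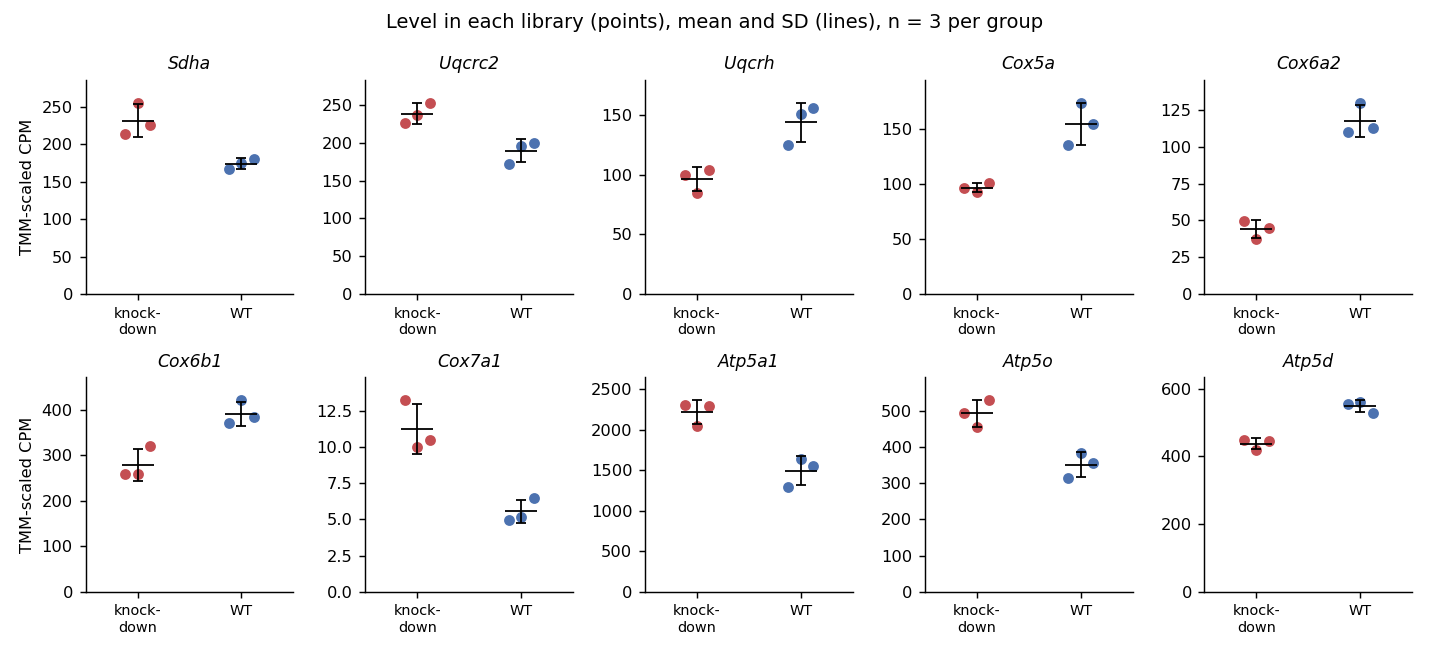
TMM-scaled CPM in each library (points) with mean ± SD (lines, n = 3 per group) for 10 of the members whose calls held in all 16 alternatives; each axis starts at 0. The knockdown and WT libraries do not overlap in any panel, with Cox6a2 at 37.6 to 49.4 CPM in the knockdown and 110 to 130 CPM in WT.

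On the TMM scale 4 of the 5 tested members of the mitochondrial genome had fold changes below 0, with a median of -0.14, while with library totals 2 of the 5 were below 0 and the median was 0.01. The 6 tested complex I genes of that genome were all below 0 on the TMM scale (median -0.20, with 1 of them, mt-Nd6, called lower), and 3 of the 6 with library totals (median -0.05, 0 called by edgeR). Of the 6 mitochondrial members 5 were tested and 0 were called by edgeR, with 1 at an unadjusted p under 0.05, while DESeq2 called that 1, mt-Co1, as did edgeR with the filter of 1 count in any library. mt-Co1, the subunit that holds the site where oxygen is reduced, had 2682, 4007 and 3729 CPM in knockdown A, B and C, against 4809, 4093 and 4275 CPM in WT A, B and C. On the TMM scale all knockdown libraries lay below all WT libraries, with knockdown A far below knockdown B and C. The change was -0.34 log2 units (SE 0.14), with an adjusted p of 0.0684 by edgeR and 0.0149 by DESeq2. With library totals the groups overlapped, because knockdown B and C lay above WT B, and the change was -0.18. mt-Co1 was called lower by edgeR without knockdown B (adjusted p = 0.0182) and with the filter of 1 count in any library (-0.31, adjusted p = 0.00113). Over the edgeR and limma alternatives its adjusted p ranged up to 0.376, with library totals. mt-Cytb, the ubiquinol-oxidising cytochrome b of complex III, had 522, 908 and 821 CPM in the knockdown libraries and 931, 678 and 718 CPM in the WT libraries, and the groups overlapped (-0.05, SE 0.18, adjusted p = 0.851). The copper-binding subunit gene mt-Co2 had 10.3, 16.4 and 16.3 CPM in the knockdown libraries and 19.3, 13.4 and 14.8 CPM in the WT libraries (-0.14, adjusted p = 0.592). For mt-Co3 the values were 9.24, 15.6 and 15.2 CPM in the knockdown libraries and 13.9, 10.9 and 12.9 CPM in the WT libraries (0.09, adjusted p = 0.742). Both overlapped between the groups. mt-Atp6, the subunit beside the c ring through which protons pass, had 1.78, 3.82 and 2.98 CPM in the knockdown libraries and 5.61, 3.04 and 3.65 CPM in the WT libraries (-0.52, SE 0.31, adjusted p = 0.206). mt-Atp8 had 0, 3 and 2 counts in the knockdown libraries, against 4, 3 and 8 counts in the WT libraries, and was not tested.

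Knockdown A was the lowest of the 6 libraries for each of these genes and WT A was the highest for all but mt-Co3 and mt-Atp8, so the spread within groups was wide. Together the 6 genes took 0.332%, 0.542% and 0.481% of counts in knockdown A, B and C, against 0.573%, 0.435% and 0.474% in WT A, B and C (exact permutation p = 0.7). The difference of means was -0.0427 percentage points, 0.0172 without knockdown A and -0.0947 with TMM-scaled totals. Ribosomal and transfer RNA genes of the mitochondrial genome took 0.0259%, 0.0318% and 0.0331% in the knockdown libraries and 0.0535%, 0.0512% and 0.0527% in the WT libraries, without overlap (exact permutation p = 0.1). Within complex IV, the log2 ratio of the summed length-scaled levels of the mitochondrial to the nuclear subunits was -1.63, -0.98 and -1.21 in the knockdown libraries and -0.93, -1.37 and -1.19 in the WT libraries (exact permutation p = 0.6). Within complex V it was -10.51, -9.13 and -9.66 in the knockdown libraries and -8.39, -9.43 and -8.80 in the WT libraries (p = 0.2, exact permutation). Both ratios overlapped between the groups, so neither showed a shift at this spread. In complex IV the mitochondrial side was almost all mt-Co1. In complex V it was mt-Atp6, at 34 to 104 counts per library, and mt-Atp8, at 0 to 8. Counts of mt-Atp6 may also depend on how reads shared with its nuclear copy, described below, were counted. The ratio in complex V therefore cannot decide whether the balance of the genomes shifted.

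Levels per length set the mitochondrial members far apart, although all are cut from long common transcripts. In the authors' FPKM, mt-Co1 stood at 2223 ± 419 in the knockdown and 2837 ± 247 in WT, and mt-Cytb at 648 ± 167 in the knockdown and 677 ± 120 in WT (SD, n = 3 each). mt-Co2 stood at 20.7 ± 4.79 in the knockdown and 23.1 ± 4.54 in WT, mt-Co3 at 16.8 ± 4.31 in the knockdown and 16.0 ± 1.94 in WT, and mt-Atp6 at 4.14 ± 1.43 in the knockdown and 6.01 ± 1.98 in WT (SD, n = 3 each). The last 3 are the genes with near-identical copies in the nuclear genome, in a stretch of chromosome 1 from 24611535 to 24616197 on the minus strand of GRCm38. None of the 7 annotated copies there matches mt-Cytb, and the copy of mt-Co1 covers 31.8% of its length. Over the 6 libraries, mt-Co2 had 1763 counts and its copy Gm28661 had 1988, mt-Co3 had 1524 and Gm28437 had 1363, and mt-Atp6 had 403 and Gm10925 had 529. mt-Co1 had 454763 counts and its copy Gm29216 had 514. The sources used here do not say how reads that match both places were counted, and the part of the copies in these levels was not tested, so values of mt-Co2, mt-Co3 and mt-Atp6 are uncertain. None of the 7 annotated copies was matched to mt-Atp8, which shares 43 exon bases with mt-Atp6. Why mt-Atp8 had so few counts was not tested.

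The first 60 bases of mt-Co2, mt-Co3 and mt-Atp6 are shown for what the copies share with them. Each gene is identical to its copy over all 681, 783 and 678 bases compared, so a read that lies within them has no letter that tells the places apart. For mt-Co1 the stretch from base 1054 to base 1113 of the gene is shown beside Gm29216, with the bases that differ in capitals. Sequences come from the GENCODE M21 transcripts, 5′ to 3′ on the strand of each gene.
mt-Co2: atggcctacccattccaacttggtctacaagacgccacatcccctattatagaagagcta
mt-Co3: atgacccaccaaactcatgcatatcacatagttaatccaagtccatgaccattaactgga
mt-Atp6: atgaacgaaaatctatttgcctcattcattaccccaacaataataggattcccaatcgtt
mt-Co1: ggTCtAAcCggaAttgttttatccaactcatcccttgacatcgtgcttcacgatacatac
Gm29216: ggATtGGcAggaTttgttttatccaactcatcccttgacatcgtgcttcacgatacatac
Counted from 1 at the first base of mt-Co1, with the mitochondrial base first and that of the copy last, the differences are T1056A, C1057T, A1059G, A1060G, C1062A and A1066T. The 479 bases that follow are identical in the copy, while the bases before 1054 have no counterpart in it.

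**Figure D5:**
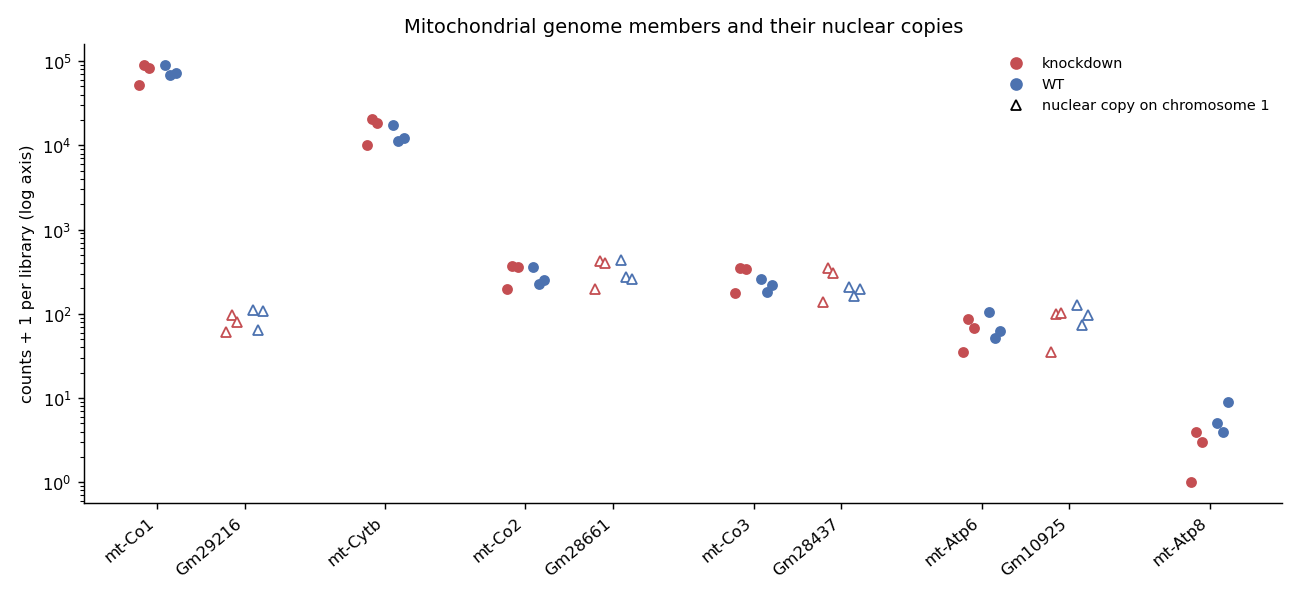
Counts + 1 per library (log axis) of the 6 mitochondrial members (filled circles) and of the nuclear copies on chromosome 1 that match them (open triangles), in knockdown (red) and WT (blue) libraries. mt-Co1 had 51364 to 90276 counts in the knockdown libraries and 68636 to 89174 in the WT libraries, far above its copy Gm29216, while mt-Co2, mt-Co3 and mt-Atp6 lie level with their copies.

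Genes that build the complexes were read from lists, and their counts stand against the 40.1% of all genes called, 20.5% higher and 19.6% lower. Of 4 assembly factors of complex II, 2 rose and 0 fell, the larger being Sdhaf3, which protects the iron-sulfur clusters of Sdhb, at 5.30 ± 0.293 CPM in the knockdown group and 2.91 ± 0.154 CPM in the WT group (SD, n = 3 each; log2 fold change 0.86, SE 0.19, adjusted p = 0.00408). Of 6 factors of complex III, 2 rose and 1 fell. Uqcc1, needed to translate and stabilise cytochrome b, rose by 0.76 (SE 0.09, adjusted p = 3.77e-05), and Lyrm7, a chaperone of the Rieske protein, rose by 1.20 (SE 0.23, adjusted p = 0.00175). Uqcc3, which acts with Uqcc1, fell by 0.94 log2 units (SE 0.12, adjusted p = 9.13e-05). Its partner Uqcc1 had 96.4, 87.6 and 94.6 CPM in knockdown A, B and C, against 50.7, 59.0 and 55.3 CPM in WT A, B and C. Uqcc3 had 28.3, 25.4 and 25.3 CPM in the knockdown libraries and 42.3, 57.0 and 52.1 CPM in the WT libraries. The list thus moved in both directions, without overlap between the groups for either gene. Of 24 tested factors of complex IV, 3 rose and 3 fell, so 25.0% were called, a smaller share than over all genes. Smim20, which stabilises newly made mt-Co1, rose by 0.75 (SE 0.08, adjusted p = 2.47e-05). Higd2a fell by 0.64 (SE 0.09, adjusted p = 0.000169) and Surf1, which helps insert haem into mt-Co1, fell by 0.58 (SE 0.09, adjusted p = 0.000317). Of 5 genes of assembly and regulation of complex V, 0 were called by edgeR or DESeq2, with 2 at an unadjusted p under 0.05. With library totals the counts of higher and lower genes were 2 and 0 for complex II, 4 and 1 for III, 10 and 3 for IV, and 3 and 0 for V. On that scale 31.7% of all genes were higher and 12.8% lower.

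Expression of the mitochondrial genome itself depends on nuclear genes. Of 28 tested genes of that list 5 rose and 2 fell, 25.0% called against 40.1% of all genes. With library totals 11 rose and 1 fell, where 31.7% of all genes were higher and 12.8% lower. Hsd17b10, a part of the enzyme that trims mitochondrial transfer RNAs, fell by 0.94 (SE 0.08, adjusted p = 5.93e-06). Mgme1, a nuclease of mitochondrial DNA, rose by 1.15 (SE 0.14, adjusted p = 6.14e-05), and Tefm, the elongation factor of the mitochondrial polymerase, rose by 0.51 (SE 0.13, adjusted p = 0.00785). Tfam, which packages mitochondrial DNA and starts its transcription, had 27.3, 30.7 and 25.8 CPM in knockdown A, B and C, against 23.9, 20.4 and 22.5 CPM in WT A, B and C. It rose by 0.33 (SE 0.12, adjusted p = 0.0406), a call lost without any 1 of the 3 knockdown libraries, WT B or WT C (adjusted p up to 0.144). Polrmt, the polymerase, had -0.09 (adjusted p = 0.425), and Lrpprc, which stabilises mitochondrial messenger RNAs, had -0.27 (adjusted p = 0.255).

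Among 11 tested nuclear regulators of respiratory genes 1 rose and 2 fell, 27.3% called against the same 40.1%. With library totals 2 rose and 1 fell, where 31.7% of all genes were higher and 12.8% lower. Pprc1, a coactivator of the PGC-1 family, fell by 0.42 (SE 0.07, adjusted p = 0.00077), and Esrra, a nuclear receptor that drives respiratory genes, fell by 0.33 (SE 0.09, adjusted p = 0.0126). Ppargc1b, another coactivator of that family, rose by 0.51 (SE 0.14, adjusted p = 0.0129). The Esrra call was lost with library totals (adjusted p = 0.0746) and when knockdown B, knockdown C or WT C was left out (up to 0.0696), and that of Ppargc1b without knockdown C or WT B (up to 0.0555). Nrf1, which encodes NRF1, had 45.7, 42.3 and 44.5 CPM in knockdown A, B and C, against 33.8, 42.5 and 37.6 CPM in WT A, B and C, and its fold change of 0.22 was not called (adjusted p = 0.112; 0.00481 with library totals). Gabpa had 7.00, 14.7 and 12.4 CPM in knockdown A, B and C, against 13.1, 11.7 and 11.5 CPM in WT A, B and C, and was not called (adjusted p = 0.803). Gabpa shares 397 exon bases with Atp5j on the other strand, and Atp5j had 18662 counts over the libraries against 1374 for Gabpa. With the strand setting of counting not stated, Gabpa values are uncertain. Ppargc1a had 0 counts in every library.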

How the data were processed

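RNA-seq was done on 6 libraries of BV2 cells, 3 labelled SMEK1 knockdown and 3 labelled WT, and samples were grouped by those labels. Per the labels' protocols, libraries were made with a SMARTER mRNA kit from 1.3 µg of column-purified RNA. The genome build was GRCm38 (mm10), per the submitters' processing notes; the sources used here give neither the aligner nor the counter, its strand setting or its treatment of reads that match several places. The authors deposited whole-number counts per gene and FPKM values scaled by length and library. All 56 members have their identifiers in GENCODE M21, 54 with the same start and end, and 15 share exon bases with another gene that has counts.

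The members and the gene lists were chosen with earlier results of these data known. The test was edgeR's quasi-likelihood test, version 4.0.16 under R 4.3.3 (filterByExpr, TMM, glmQLFit and glmQLFTest, no covariates). Where no other tool is named, adjusted p-values are from it, with Benjamini-Hochberg adjustment over 12269 genes, and an adjusted p under 0.05 was called. The biological coefficient of variation was 0.121. Values per library are TMM-scaled CPM. Each SE was derived from the log2 fold change and its F statistic and is approximate. Shares and ratios within a library were compared by an exact two-sided permutation test. Counting limits cover counting error only, since no molecular identifiers are stated. The scripts were tested on simulated counts.

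Genes named were the called members, the members of the mitochondrial genome, the untested members, the isoform sets, the member with the highest FPKM of each complex, set regulators, and from each list up to 3 called genes ranked by adjusted p. Alternatives were library totals, size factors of DESeq2, nuclear genes alone, filters of at least 1 CPM in 3 libraries or of 1 count in any library, DESeq2 1.42.0, limma-voom, limma 3.58.1 on log2(FPKM + 1) or log2(FPKM + 0.1) for genes averaging 0.5 FPKM or more, a replicate block, and leaving out each library. Promoter windows are from RefSeq (GRCm38.p6), and the sequences of mitochondrial genes and their copies from GENCODE M21 transcripts.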

Additional observations from a re-analysis of the deposited data

How the results depend on the processing

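Of the 18 called members, 12 kept their call and direction in all 16 alternatives: Sdha, Uqcrc2, Uqcrh, Uqcrq, Cox5a, Cox6a2, Cox6b1, Cox6c, Cox7a1, Atp5a1, Atp5d and Atp5o. Cox8a lost it in 11, Sdhc in 7, Uqcrfs1 in 5, Cox5b and Cox7c in 4 each and Cox4i1 in 1, and no called fold change changed sign. The number of members called higher was 19 with library totals, against 7. Over the 6 fits that leave out 1 library it ranged from 5 to 10, and the number called lower from 8 to 14. Genes called over the whole table ranged from 3703 without knockdown C to 4870 without knockdown B in those fits. No pairing by replicate letter was seen. Deviations from the group means correlated at -0.435 for A, -0.411 for B and -0.00376 for C between the groups. With so few libraries this check cannot exclude pairing. Across letters the correlations ranged from -0.159 for knockdown B with WT C to 0.489 for knockdown B with WT A. No fit held a term for such spread across letters. With the letter as a replicate block, 5 members were higher and 7 lower, of 3326 genes called, and Sdhc, Uqcrfs1, Cox4i1, Cox5b, Cox7c and Cox8a were not called. With DESeq2, 8 were higher and 12 lower. The Cox7a1 share differed by 0.918 percentage points with counts not scaled by length, against 1.83. The mitochondrial to nuclear ratio of complex IV differed by -0.11 on the log2 scale, by 0.10 with geometric means of levels and by 0.07 without knockdown A, all within the spread of the libraries. The alternative that adds the nuclear copies on chromosome 1, chosen after seeing the data, gave -0.11 in complex IV and -0.89 in complex V. With TMM-scaled library totals, also added after seeing the data, the differences in share of counts were 0.0221 percentage points in complex II (0.0367 with library totals), -0.0297 in complex III (0.00391), 0.0020 in cytochrome c (0.00359), -0.105 in complex IV (-0.0387), 0.111 in complex V (0.215) and -0.0942 over all members (0.178). The cause of these differences was not tested. The share of Cox6b2 was not computed, since its counts are 0. Genes with a few counts per library, such as mt-Atp8 and Cox4i2, did not pass the filter and were not tested.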

Other observations

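Genes around the complexes were read in the same fit. Coenzyme Q carries electrons from complex II to complex III, and of 13 tested genes of its synthesis and handling 6 were higher and 1 lower, with a median log2 fold change of 0.28, where 40.1% of all genes were called with a median of 0.01. With library totals 8 were higher and 1 lower, where 31.7% of all genes were higher and 12.8% lower. Coq10b, which binds coenzyme Q, had 6.21, 6.53 and 6.68 CPM in knockdown A, B and C, against 2.91, 3.10 and 2.88 CPM in WT A, B and C, and rose by 1.13 (SE 0.19, adjusted p = 0.000559). Coq3, a methyltransferase of the pathway, rose by 0.74 (SE 0.16, adjusted p = 0.00284), and Coq8a, an atypical kinase of the same complex of enzymes, fell by 0.74 (SE 0.18, adjusted p = 0.00586).

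Among 16 tested carriers, porins and other abundant mitochondrial genes, 3 were higher and 4 lower, 43.8% called against 40.1% of all genes. With library totals 5 were higher and 3 lower, where 31.7% of all genes were higher and 12.8% lower. Cs, which encodes citrate synthase, had 247, 231 and 233 CPM in knockdown A, B and C, against 307, 331 and 340.4 CPM in WT A, B and C, and fell by 0.46 (SE 0.08, adjusted p = 0.000583). Slc25a3, the carrier that brings phosphate to ATP synthase, fell by 0.44 (SE 0.10, adjusted p = 0.00334). Vdac1, a porin of the outer membrane, rose by 0.43 (SE 0.10, adjusted p = 0.00436), with 576, 521 and 562 CPM in the knockdown libraries and 355, 450 and 428 CPM in the WT libraries. The groups did not overlap in any of these genes.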
